A study of Homo sapiens with 12 samples.

Results

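Rab proteins are small GTPases that mark the membranes of vesicles and organelles and set where those membranes travel, dock and fuse. Each Rab is loaded with GTP by an exchange factor, switched off by a GTPase-activating protein, carried through the cytosol with a lipid anchor hidden by a chaperone, and acts by binding effectors such as tethers and motor adaptors. In the prostate, luminal epithelial cells secrete enzymes and fluid into the gland, and RAB27A and RAB3 proteins belong to the machinery of regulated secretion. The Rab genes described here were chosen by symbol: RAB, a number and at most 1 letter from A to D, on probe sets that the array annotation ties to 1 gene. The rule found 57 genes with 138 probe sets among 19775 genes, and each gene was read from its brightest probe set (highest mean over the arrays). Of these, 44 had a log2 value above 4 on at least 3 of 12 arrays and were tested among 10265 genes. The other 13 (RAB31, RAB33A, RAB37, RAB38, RAB39A, RAB3C, RAB40A, RAB42, RAB43, RAB4B, RAB6A, RAB7B and RAB9B) had probe-set means of 2.12 to 3.57 and no single value above 3.87, so nothing is said of them beyond a low signal. RAB6A, RAB4B and RAB43 also have probe sets that carry several symbols, which the rule does not use.

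The study used LNCaP, an androgen-sensitive human prostate adenocarcinoma line, and asked which genes depend on serum response factor (SRF) and on androgen. SRF is a transcription factor that binds CArG boxes and works with actin-sensing and growth-signal cofactors. Messenger RNA was measured on 12 Affymetrix arrays in 4 groups of 3. The groups were SRF siRNA with R1881, a synthetic androgen, SRF siRNA with ethanol vehicle, control siRNA with R1881, and control siRNA with vehicle. All cells, controls included, were first deprived of androgen for 48 h. Treatment began 42 h after transfection and lasted 48 h at 5 nM R1881 or in ethanol. The siRNA sequences were not given in the sources used here, 1 cell line was used throughout, and the labels do not say whether the biological replicates came from separate cultures. The p-values therefore measure the spread between these arrays.

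The silenced gene followed its labels. SRF had log2 values of 4.89, 4.98 and 4.73 with SRF siRNA and R1881, against 6.50, 6.25 and 6.16 with control siRNA and R1881, a change of -1.44 ± 0.14 (SE, limma adjusted p = 3.31e-06) that left 36.9% of the signal. In vehicle it had 4.56, 5.06 and 4.58 with SRF siRNA, against 5.91, 6.14 and 6.17 with control siRNA, a change of -1.34 ± 0.14 (limma adjusted p = 7.98e-06). All 8 measured luminal markers were above 4 on every array. None of the 4 measured leukocyte and none of the 3 measured neuroendocrine markers was above 4 on any array, and of the basal or mesenchymal and fibroblast markers VIM and COL1A1 were above it on all arrays and COL3A1 on 7. Mean COL3A1 was 4.07 with R1881 and 7.91 with vehicle in silenced cells, and 2.97 and 6.45 in control cells. Mean VIM was 8.25 with SRF siRNA and 6.31 with control siRNA under R1881, and 7.74 and 6.76 in vehicle. Their part in the Rab changes was not tested. In such bulk samples fewer cells of a type and less RNA per cell cannot be told apart. Over the probe sets the correlation was 0.996 to 0.998 within groups and 0.966 to 0.988 between groups. The GAPDH 3′ minus 5′ difference, a sign of RNA quality, was 0.46 ± 0.02 with R1881 and 0.14 ± 0.09 with vehicle under control siRNA, and 0.49 ± 0.14 with R1881 and 0.36 ± 0.04 with vehicle under SRF siRNA (log2, SD, n = 3 each). The exact two-sided permutation p for R1881 was 0.3 with SRF siRNA and 0.1 with control siRNA, the smallest that 3 against 3 arrays allow. This difference entered the fits only as a covariate in an alternative.

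R1881 changed Rab genes in both directions. In control cells 32 of 44 passed the test (limma, adjusted p under 0.05 over all genes), 19 higher and 13 lower, beside 60.6% of all genes tested, 26.9% higher and 33.8% lower. The median Rab change was 0.15 on the log2 scale and that of all genes -0.05. In SRF-silenced cells 25 of 44 passed, 13 higher and 12 lower, beside 53.1% of all genes, 25.5% higher and 27.7% lower, with medians of -0.07 for the Rab genes and -0.03 for all genes. The share called in silenced cells lay near that of all genes. In both siRNA backgrounds 21 Rab genes were called, all 21 in the same direction, which is 84% of the calls in silenced cells and 65.6% of those in control cells. Over all genes the same shares were 78.1% and 68.4%, and 4099 of the 4260 genes called in both went in the same direction. At least 2-fold changes were few: 3 higher and 2 lower in silenced cells, beside 5.56% and 5.1% of all genes, and 4 higher and 3 lower in control cells, beside 7.08% and 7.06%.

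**Figure D1:**
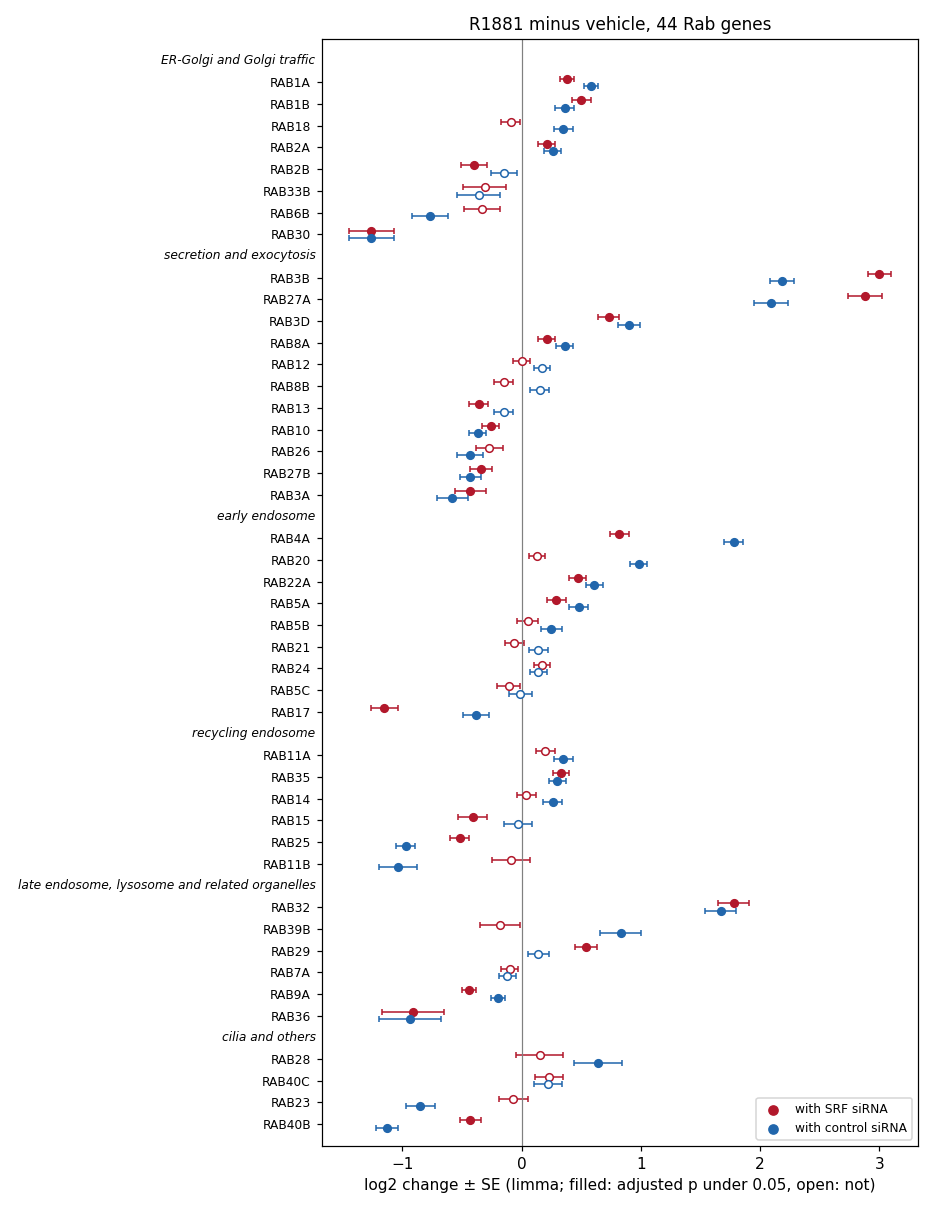
Log2 change of R1881 against vehicle (x axis) for each of 44 tested Rab genes (rows, grouped by role and sorted within a group) in SRF-silenced and control cells. Points are limma estimates with SE, filled where the adjusted p is under 0.05; RAB27A and RAB3B lie farthest to the right, RAB30 farthest to the left.

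The secretory Rabs held the largest androgen responses. RAB3B, a RAB3 isoform of regulated exocytosis, had log2 values of 9.74, 9.57 and 9.83 with R1881, against 6.71, 6.87 and 6.56 with vehicle, in SRF-silenced cells. In control cells it had 9.63, 9.49 and 9.47 with R1881, against 7.22, 7.33 and 7.49 with vehicle. Every R1881 array lay above every vehicle array in both backgrounds. RAB3B rose by 3.00 ± 0.10 in silenced cells (8.01-fold, limma adjusted p = 3.37e-10) and by 2.18 ± 0.10 in control cells (4.53-fold, limma adjusted p = 4.21e-09). Its 5 probe sets rose by 2.66 to 3.62 in silenced and by 2.02 to 2.41 in control cells.

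RAB27A docks secretory vesicles and lysosome-related organelles at the plasma membrane. With SRF siRNA its log2 values were 7.47, 7.63 and 7.60 with R1881, against 4.98, 4.69 and 4.38 with vehicle. With control siRNA they were 9.64, 9.59 and 9.26 with R1881, against 7.49, 7.28 and 7.44 with vehicle. Androgen and SRF siRNA moved it in opposite directions, and silenced cells given R1881 overlapped with control cells given vehicle. R1881 raised it by 2.88 ± 0.14 in silenced cells (7.37-fold, limma adjusted p = 7.11e-09) and by 2.09 ± 0.14 in control cells (4.26-fold, limma adjusted p = 9.81e-08), and its 5 probe sets rose by 1.66 to 3.67 and by 2.09 to 2.63. RAB27B, its close relative in secretion, did the opposite with androgen: it fell by 0.34 in silenced cells (SE 0.09, limma adjusted p = 0.00832) and fell by 0.43 in control cells (SE 0.09, limma adjusted p = 0.00171). The call in silenced cells was lost when all probe sets of a gene were averaged.

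Of the other secretory Rabs, RAB3D, a RAB3 isoform of exocrine granules, rose by 0.73 ± 0.09 in silenced and by 0.90 ± 0.09 in control cells. RAB3A, the isoform of synaptic vesicles, fell, by changes of -0.43 and -0.58, each with an SE of 0.13. RAB10, which carries vesicles to the cell surface, fell, by changes of -0.26 and -0.37, each with an SE of 0.07. In control cells that fall lost its call with the GAPDH difference as a covariate. RAB8A, which works between the Golgi and the plasma membrane, rose by 0.21 and by 0.36, and neither call held with that covariate. RAB13, known from tight junctions, fell in silenced cells (-0.36 ± 0.08, limma adjusted p = 0.00302). In control cells RAB13 changed by -0.15 ± 0.08, not called (limma adjusted p = 0.133). RAB26 fell in control cells (-0.43 ± 0.11, limma adjusted p = 0.00571). In silenced cells RAB26 changed by -0.27 ± 0.11 (limma adjusted p = 0.063), and it passed there under several alternatives. For neither gene was the difference of effects called. RAB12 and RAB8B passed in neither background. The list of 11 tested secretory Rabs thus held 4 higher and 4 lower in each background.

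**Figure D2:**
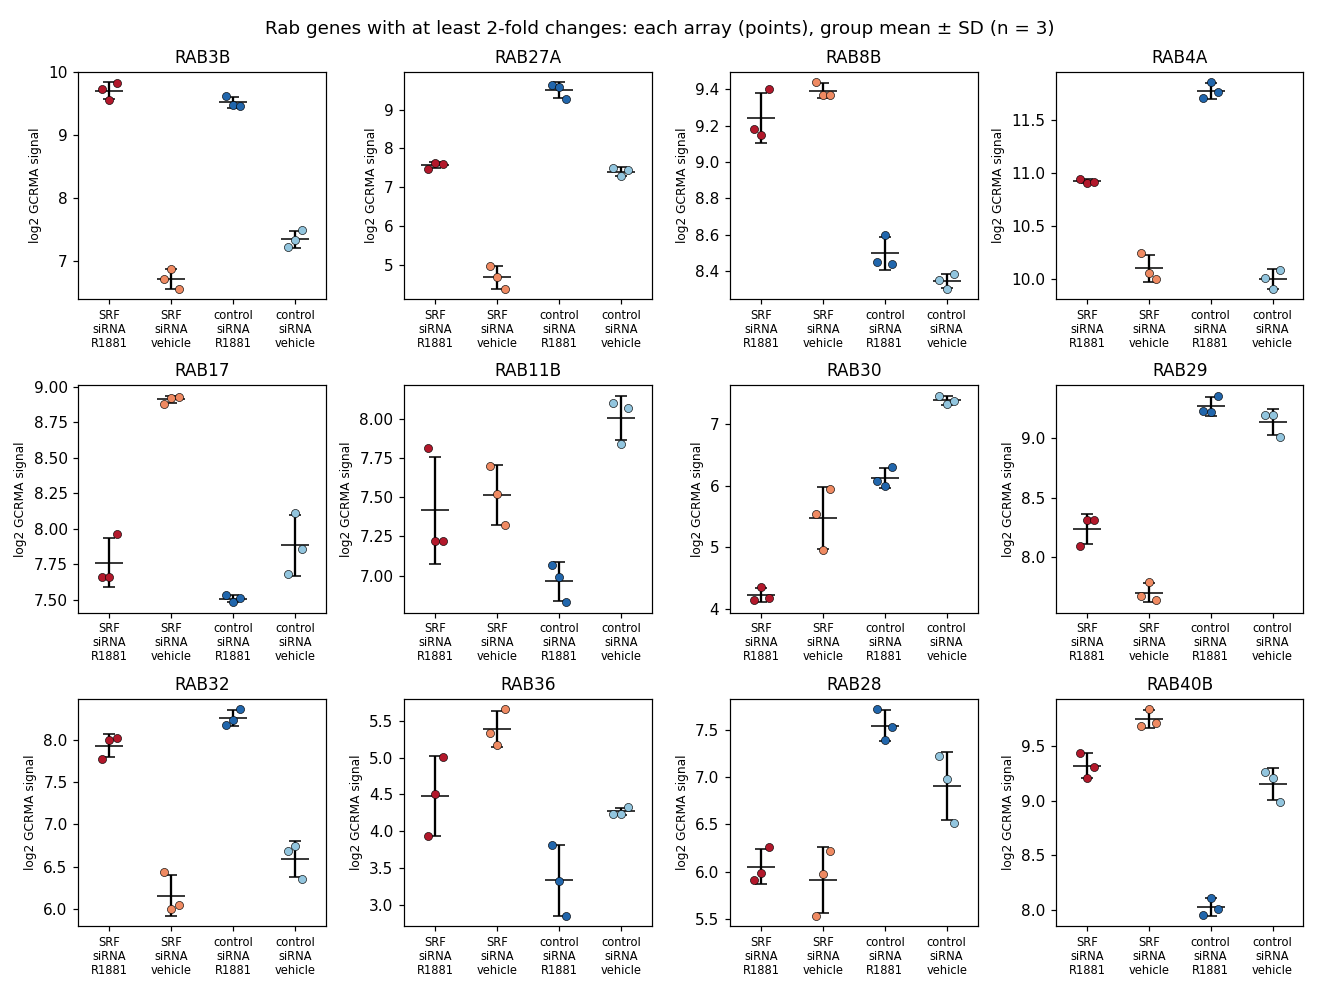
Log2 signal of each array (points) in the 4 groups for 12 Rab genes called with at least a 2-fold change in some pairwise comparison, with the group mean and SD (n = 3). Each panel has its own y axis; RAB3B and RAB27A stand higher with R1881 under both siRNAs, and RAB27A, RAB29 and RAB28 stand lower with SRF siRNA.

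Of 9 tested early endosome Rabs, R1881 raised 3 and lowered 1 in silenced cells, and raised 5 and lowered 1 in control cells. Of all genes, 25.5% were higher and 27.7% lower in silenced cells, and 26.9% and 33.8% in control cells. RAB4A, which returns cargo quickly from early endosomes to the surface, carried the largest rise. Its log2 values in silenced cells were 10.95, 10.91 and 10.92 with R1881, against 10.25, 10.06 and 10 with vehicle. In control cells they were 11.71, 11.86 and 11.77 with R1881, against 10.01, 9.91 and 10.09 with vehicle. The groups did not overlap in either background. It rose by 0.82 ± 0.08 in silenced cells (limma adjusted p = 3.66e-06) and by 1.78 ± 0.08 in control cells (3.43-fold, limma adjusted p = 2.49e-09). RAB22A, a RAB5 relative of endosomes, rose by 0.47 ± 0.07 and by 0.61 ± 0.07 in the same order, and RAB5A, which drives early endosome fusion, by 0.29 and 0.48. The RAB5A change in silenced cells was 0.18 (adjusted p = 0.152) when probe sets were averaged, and that in control cells was 0.43 (adjusted p = 0.0522) with the GAPDH covariate. RAB20, known from phagosome maturation, changed by 0.13 ± 0.07 in silenced cells (limma adjusted p = 0.121) and rose by 0.98 ± 0.07 in control cells (limma adjusted p = 1.29e-07). RAB17, a Rab of polarised epithelial traffic, fell by 1.15 in silenced cells (SE 0.11, limma adjusted p = 2.92e-06) and fell by 0.38 in control cells (SE 0.11, limma adjusted p = 0.0101).

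Among recycling and Golgi Rabs the changes ran both ways. RAB11A, the ubiquitous Rab of slow recycling, rose in control cells (0.35 ± 0.08, limma adjusted p = 0.00307), where its relatives RAB11B and RAB25 fell. RAB11A had log2 values of 12.50, 12.57 and 12.39 with R1881, against 12.44, 12.25 and 12.16 with vehicle, in silenced cells, and these overlapped. With control siRNA the values were 12.98, 12.92 and 12.97 with R1881, against 12.55, 12.60 and 12.68 with vehicle, and these did not overlap. Its other 2 probe sets were called higher in silenced cells too (0.42, limma adjusted p = 0.00395, and 0.29, limma adjusted p = 0.0149), and the brightest also passed there under several alternatives, so no difference between the backgrounds was shown. RAB25, the epithelial relative, had log2 values of 10.43, 10.34 and 10.49 with R1881, against 11.07, 10.90 and 10.87 with vehicle, in silenced cells. In control cells it had 9.89, 10.02 and 9.90 with R1881, against 10.83, 10.93 and 10.98 with vehicle. All R1881 arrays lay below all vehicle arrays under each siRNA, and RAB25 fell by 0.52 ± 0.08 in silenced and fell by 0.97 ± 0.08 in control cells. RAB11B fell by 1.04 in control cells (SE 0.16, limma adjusted p = 9.54e-05). With the GAPDH difference as a covariate that change was -0.48 (adjusted p = 0.125). RAB1A and RAB1B, which serve the step from the ER to the Golgi, rose in both backgrounds, RAB1A by 0.38 ± 0.06 in silenced and 0.58 ± 0.06 in control cells, and RAB1B by 0.50 ± 0.08 and 0.36 ± 0.08. For RAB1A the log2 values were 12.04, 12.10 and 12.08 with R1881, against 11.73, 11.70 and 11.64 with vehicle, in silenced cells, and 12.30, 12.30 and 12.34 with R1881, against 11.64, 11.75 and 11.80 with vehicle, in control cells. The RAB1B call in control cells was lost with the GAPDH covariate. RAB30, a Golgi Rab, fell by 1.26 ± 0.19 in each background (limma adjusted p = 0.000144 in silenced and 0.000105 in control cells).

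Among late endosomal and lysosomal Rabs RAB32, which serves melanosomes and other lysosome-related organelles, had log2 values of 7.78, 8 and 8.03 with R1881, against 6.43, 5.99 and 6.04 with vehicle, in silenced cells. With control siRNA the values were 8.18, 8.24 and 8.37 with R1881, against 6.69, 6.74 and 6.35 with vehicle. It rose without overlap under both siRNAs, by 1.78 ± 0.13 (limma adjusted p = 3.2e-07) and by 1.67 ± 0.13 (limma adjusted p = 3.95e-07). RAB7A, the general Rab of late endosomes, was called in no comparison, and neither were RAB5C, RAB12 and RAB40C. RAB9A, which returns receptors from late endosomes to the Golgi, fell by 0.44 in silenced and fell by 0.20 in control cells, where the call was lost with the GAPDH covariate (adjusted p = 0.335) and when any 1 of 3 arrays was left out. RAB40B, a Rab with a SOCS box that joins ubiquitin ligases, fell by 0.43 in silenced cells (SE 0.09, limma adjusted p = 0.0018) and fell by 1.13 in control cells (SE 0.09, limma adjusted p = 4.55e-07). Averaging its probe sets ended the call in silenced cells and gave -0.59 in control cells. RAB23, a negative regulator of hedgehog signalling in the mouse, fell by 0.85 in control cells (SE 0.12, limma adjusted p = 6.9e-05).

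Promoter sequence is shown for 5 of these genes because androgen receptor and SRF act by binding DNA. RAB27A and RAB30 fell most with SRF siRNA. RAB40B, RAB25 and RAB23 were picked because they fell with R1881 in control cells and carry an AGAACA hexamer. RAB13 and RAB2B carry it too and were called lower with R1881 in silenced cells only. Of all genes, 33.8% were lower with R1881 in control and 27.7% in silenced cells. A link between the hexamer and these falls was not tested. The windows run from 250 bases before to 50 after the gene start, 5′ to 3′ on the gene's strand, from RefSeq on GRCh38.p14. Capitals mark AGAACA, the arm of an androgen response element, or TGTTCT, the same hexamer on the other strand; RAB27A and RAB30 have neither.
RAB27A (chr15:55319074-55319373, minus strand): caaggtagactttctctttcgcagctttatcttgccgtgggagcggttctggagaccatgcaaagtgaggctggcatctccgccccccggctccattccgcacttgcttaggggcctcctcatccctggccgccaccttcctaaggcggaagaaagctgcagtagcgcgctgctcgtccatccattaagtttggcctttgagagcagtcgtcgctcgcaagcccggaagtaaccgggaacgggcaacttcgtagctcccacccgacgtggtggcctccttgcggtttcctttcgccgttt
RAB30 (chr11:83071848-83072147, minus strand): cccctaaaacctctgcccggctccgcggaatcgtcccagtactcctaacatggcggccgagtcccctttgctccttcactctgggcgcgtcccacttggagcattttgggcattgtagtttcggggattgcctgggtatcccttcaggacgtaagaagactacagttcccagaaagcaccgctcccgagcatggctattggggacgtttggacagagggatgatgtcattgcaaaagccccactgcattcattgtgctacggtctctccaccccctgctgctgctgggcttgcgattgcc
RAB40B (chr17:82698649-82698948, minus strand): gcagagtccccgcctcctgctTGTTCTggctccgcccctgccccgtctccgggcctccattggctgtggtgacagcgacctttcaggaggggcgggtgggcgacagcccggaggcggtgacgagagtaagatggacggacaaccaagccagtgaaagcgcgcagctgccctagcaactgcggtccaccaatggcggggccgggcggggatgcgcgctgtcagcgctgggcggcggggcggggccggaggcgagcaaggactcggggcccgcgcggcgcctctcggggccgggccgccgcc
RAB25 (chr1:156060910-156061209, plus strand): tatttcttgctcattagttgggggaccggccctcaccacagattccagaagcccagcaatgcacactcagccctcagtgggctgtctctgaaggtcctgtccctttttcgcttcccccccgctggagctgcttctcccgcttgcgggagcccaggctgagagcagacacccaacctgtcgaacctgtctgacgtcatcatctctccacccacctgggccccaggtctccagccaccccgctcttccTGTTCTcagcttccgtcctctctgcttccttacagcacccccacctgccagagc
RAB23 (chr6:57222258-57222557, minus strand): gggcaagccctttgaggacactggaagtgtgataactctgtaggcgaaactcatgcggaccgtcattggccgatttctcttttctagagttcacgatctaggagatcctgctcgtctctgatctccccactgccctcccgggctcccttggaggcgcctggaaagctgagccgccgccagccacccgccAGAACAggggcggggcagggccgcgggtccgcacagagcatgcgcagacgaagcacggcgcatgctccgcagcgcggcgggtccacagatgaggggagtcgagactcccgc
The hexamer begins 229 bases before the start in RAB40B, 4 before it in RAB25 and 61 before it in RAB23.

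RefSeq windows were at hand for 45 of the 57 Rab genes, 35 of them tested. The hexamer was found in 5 of 45 (11.1%), RAB13, RAB23, RAB25, RAB2B and RAB40B, beside 14.8% of 35116 promoters. The full element (AGAACA, any 3 bases, then TGTTCT) was in no Rab window and in 0.00285% of all promoters. No Rab window held a CArG box, beside 1.29% of all promoters. A missing match says only that these letters are not in this window. The Rab promoters were rich in CpG whether tested or not. The median observed over expected ratio was 0.82 for tested and 0.823 for untested Rab genes, beside 0.579 for all promoters. The set of all promoters was not limited to tested genes.

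SRF siRNA lowered more Rab genes than it raised. With R1881 present 30 of 44 passed, 11 higher and 19 lower, beside 59% of all genes, 33.6% higher and 25.4% lower. In vehicle 28 of 44 passed, 10 higher and 18 lower, beside 55.7% of all genes, 30.7% higher and 25% lower. The median Rab change was -0.21 with R1881 and -0.06 in vehicle, where all genes had medians of 0.06 and 0.04. In both conditions 20 Rab genes were called, 19 in the same direction and RAB11B in opposite ones, which is 66.7% of the calls with R1881 and 71.4% of those in vehicle. Neither RAB11B call was stable: that with R1881 (0.45) was 0.26 without the first array of SRF siRNA and R1881 (adjusted p = 0.0944), and that in vehicle (-0.50) was -0.11 with the GAPDH covariate (adjusted p = 0.656). The second RAB11B probe set gave 0.44 ± 0.10 with R1881 (limma adjusted p = 0.00369) and -0.10 ± 0.10 in vehicle, not called (limma adjusted p = 0.443). Over all genes the shares called in both conditions were 69.8% of the calls with R1881 and 74% of those in vehicle. Of these 4231 genes, 3956 went in the same direction. The GAPDH 3′ minus 5′ difference given above had an exact two-sided permutation p of 0.8 between siRNAs with R1881 and of 0.1, the smallest possible, in vehicle. At least 2-fold, 2 were higher and 4 lower with R1881, beside 6.71% and 4.9% of all genes, and 3 were higher and 3 lower in vehicle, beside 5.09% and 4.19%.

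**Figure D3:**
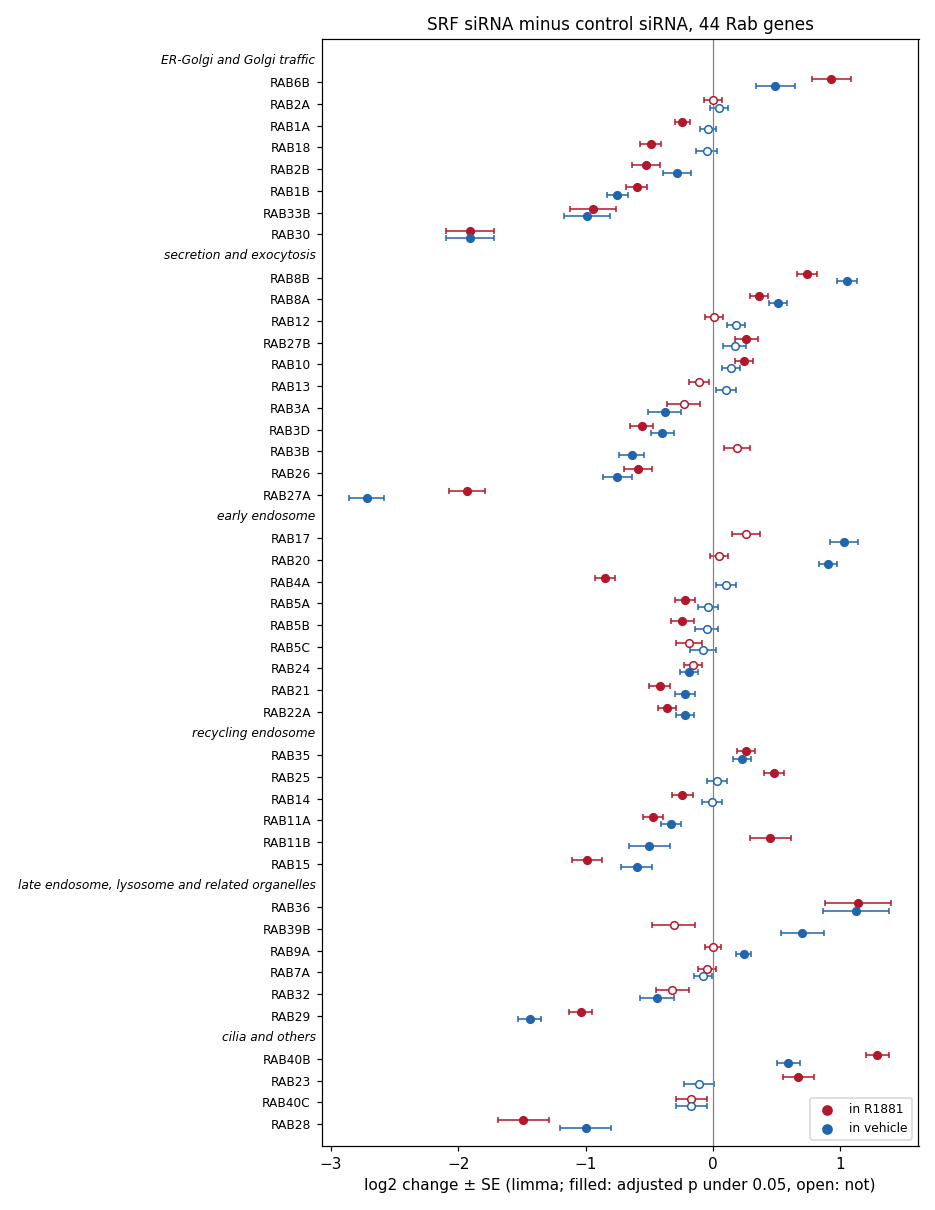
Log2 change of SRF siRNA against control siRNA (x axis) for each of 44 tested Rab genes (rows, grouped by role), with R1881 and in vehicle. Points are limma estimates with SE, filled where the adjusted p is under 0.05; RAB27A, RAB30 and RAB29 lie below -1 in both conditions.

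RAB27A fell most. Its arrays with SRF siRNA lay below all those with control siRNA under each treatment, and it fell by 1.93 ± 0.14 with R1881 (26.3% left, limma adjusted p = 3.24e-07) and fell by 2.72 ± 0.14 in vehicle (15.2% left, limma adjusted p = 2.8e-08). Its 5 probe sets changed by -2.35 to -1.16 with R1881 and by -2.72 to -0.96 in vehicle, where the dimmest was not called (limma adjusted p = 0.0585). RAB27B did not follow it: its change was 0.26 ± 0.09 with R1881 (limma adjusted p = 0.0321) and 0.17 ± 0.09 in vehicle (limma adjusted p = 0.134). The first of these is -0.01 when the probe sets are averaged.

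RAB30 had log2 values of 4.14, 4.36 and 4.17 with SRF siRNA and R1881, against 6.07, 6 and 6.31 with control siRNA and R1881. In vehicle it had 5.54, 4.95 and 5.94 with SRF siRNA, against 7.46, 7.32 and 7.37 with control siRNA. The groups did not overlap, and it fell by 1.91 ± 0.19 in each condition (26.7% left, limma adjusted p = 3.73e-06 with R1881 and 4.97e-06 in vehicle). The values with SRF siRNA and R1881 lay close to the filter of 4, and whether background limits the size of its change there was not tested. A second of its 3 passing probe sets changed by -1.29 with R1881 and -1.40 in vehicle, and the third by -0.01, not called, and -0.35. Their mean gave -1.07 and -1.22. RAB30 was thus lower with androgen and lower with SRF siRNA.

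RAB29, a Rab that binds the kinase LRRK2 at the Golgi and lysosomes, had 8.09, 8.31 and 8.31 with SRF siRNA and R1881, against 9.23, 9.22 and 9.36 with control siRNA and R1881. In vehicle it had 7.67, 7.79 and 7.63 with SRF siRNA, against 9.20, 9.20 and 9.01 with control siRNA. It fell by 1.04 ± 0.09 with R1881 (48.8% left, limma adjusted p = 1.01e-06) and fell by 1.44 ± 0.09 in vehicle (36.9% left, limma adjusted p = 1.01e-07). Its 2 probe sets gave -1.20 and -1.04, and -1.71 and -1.44. RAB28, known from the cilia of photoreceptors, had 5.91, 5.99 and 6.26 with SRF siRNA and R1881, against 7.72, 7.39 and 7.53 with control siRNA and R1881, and fell by 1.49 ± 0.20 (limma adjusted p = 3.76e-05). In vehicle it had 5.53, 5.97 and 6.22 with SRF siRNA, against 7.22, 6.98 and 6.51 with control siRNA, and fell by 1.00 ± 0.20 (limma adjusted p = 0.001). These groups did not overlap either. The other passing probe sets of RAB28, both dimmer, were called lower with R1881 (-0.86 and -1.11). In vehicle they changed by -0.12, not called (limma adjusted p = 0.603), and by -0.79, called.

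Of 8 tested Golgi Rabs, 6 fell with SRF siRNA with R1881 and 4 in vehicle, beside 25.4% and 25% of all genes. RAB6B, a brain-enriched Rab of Golgi retrograde transport, was the only one of them called higher in either on the brightest probe set. The 4 include RAB2B (-0.28, limma adjusted p = 0.0476), which lost that call under several alternatives. RAB1A fell with R1881 present (-0.24), but its dimmest passing probe set gave 0.01 there and was called higher in vehicle (0.44). RAB33B, a Golgi Rab that binds the autophagy protein ATG16L1, fell in both conditions (-0.94 with R1881 and -0.99 in vehicle), each with an SE of 0.18. RAB1B fell likewise (-0.60 and -0.75), each with an SE of 0.08. For RAB6B the changes were 0.93 ± 0.15 and 0.49 ± 0.15, and that in vehicle was -0.03 when the probe sets were averaged. With R1881 present 5 of 9 early endosome Rabs were called lower, beside 25.4% of all genes, and the other 4 were not called. The 5 include RAB22A, whose probe sets disagree, and RAB5A and RAB5B, which each lost the call under several alternatives. Of the rest, RAB4A fell by 0.85 ± 0.08 (limma adjusted p = 2.34e-06), while in vehicle its change was 0.10 ± 0.08 (limma adjusted p = 0.304). Its other probe sets changed with R1881 present by -1.09, which was called, and by -0.15, which was not (limma adjusted p = 0.191). RAB22A was called lower in both conditions on its brightest probe set (-0.36 and -0.22), but another probe set was called higher (0.47 and 0.31), so it has no settled direction.

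Some Rab genes rose with SRF siRNA. RAB8B, a relative of RAB8A, had 9.18, 9.15 and 9.40 with SRF siRNA and R1881, against 8.45, 8.60 and 8.44 with control siRNA and R1881. In vehicle it had 9.44, 9.37 and 9.37 with SRF siRNA, against 8.35, 8.30 and 8.38 with control siRNA. It rose by 0.74 ± 0.08 (limma adjusted p = 6.87e-06) and by 1.05 ± 0.08 (limma adjusted p = 5.83e-07), and lost the call with R1881 when the probe sets were averaged. RAB40B rose by 1.29 ± 0.09 with R1881 (limma adjusted p = 2.23e-07) and by 0.59 ± 0.09 in vehicle. RAB36, a late endosome Rab, rose by 1.14 ± 0.26 and by 1.12 ± 0.26, but it was above the filter on 8 of 12 arrays and on no array with control siRNA and R1881. With values under 4 set to 4, the change with R1881 was 0.50 (adjusted p = 0.0411), so its size there rests on values near background. With the GAPDH covariate its change in vehicle was 0.60 (adjusted p = 0.201). RAB17 rose in vehicle by 1.03 ± 0.11 (limma adjusted p = 8.74e-06), with 8.88, 8.92 and 8.93 with SRF siRNA, against 7.68, 8.11 and 7.86 with control siRNA. With R1881 it had 7.66, 7.66 and 7.96, against 7.53, 7.48 and 7.51, a change of 0.26 ± 0.11 that was not called (limma adjusted p = 0.062). These groups did not overlap, and the change passed under several alternatives, the GAPDH covariate among them. The lack of a rise with R1881 was therefore not shown.

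SRF siRNA altered the R1881 response in 12 of 44 Rab genes, beside 23.8% of all genes. The difference of the effects, SRF siRNA minus control siRNA, was above 0 in 7 (13.2% of all genes) and below 0 in 5 (10.5%), a share near the background. RAB39B was the only one past 2-fold, below 0, as were 2.42% of all genes, with 2.59% past 2-fold above 0. Where it was above 0, either a rise was larger or a fall was smaller in silenced cells.

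**Figure D4:**
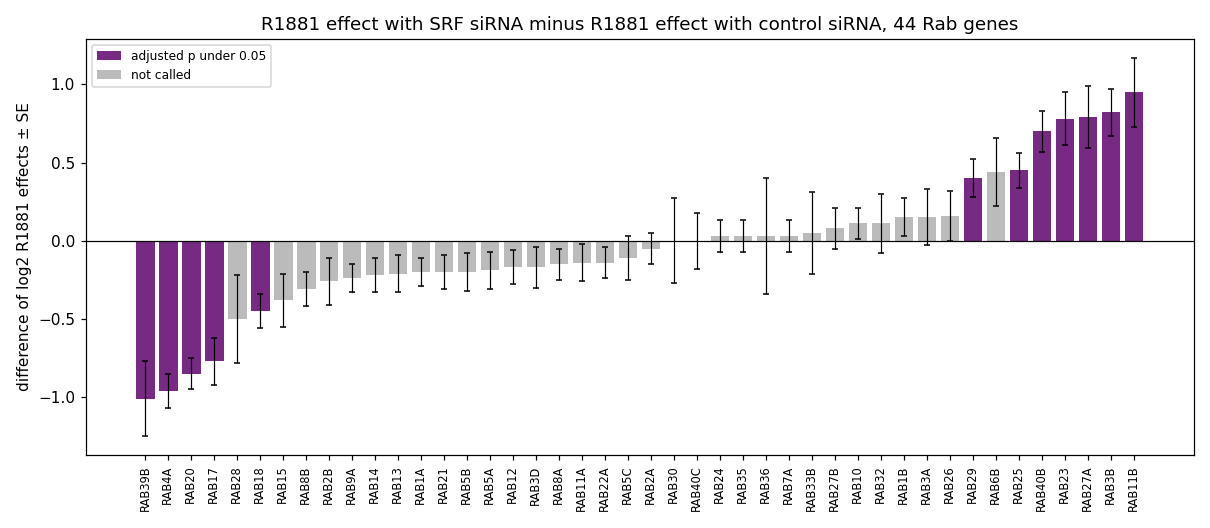
Difference between the R1881 effect with SRF siRNA and the R1881 effect with control siRNA (y axis, log2) for 44 tested Rab genes, sorted. Bars start at 0 and carry the limma SE, and purple bars have an adjusted p under 0.05; they run from RAB39B at -1.01 to RAB11B at 0.95.

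The 5 with a negative difference were RAB39B, RAB4A, RAB20, RAB17 and RAB18. RAB4A rose less in silenced cells, a difference of -0.96 ± 0.11 (limma adjusted p = 0.000101), and all 3 of its probe sets gave a difference between -1.17 and -0.89. For RAB20 the log2 values were 6.60, 6.61 and 6.72 with R1881 and 6.43, 6.55 and 6.55 with vehicle in silenced cells. In control cells they were 6.55, 6.61 and 6.62 with R1881 and 5.54, 5.66 and 5.63 with vehicle. The control vehicle arrays alone stood low, and the difference was -0.85 ± 0.10 (limma adjusted p = 7.98e-05). RAB39B, a neuron-enriched Rab tied to autophagy, likewise had 5.97, 5.84 and 6 with R1881 and 5.96, 6.14 and 6.24 with vehicle in silenced cells. In control cells it had 6.28, 6.14 and 6.31 with R1881 and 5.70, 5.63 and 4.92 with vehicle, 1 vehicle array lying apart from the other pair. Its difference was -1.01 ± 0.24 (limma adjusted p = 0.00912), and -0.92 (adjusted p = 0.0544) with the GAPDH covariate. RAB17 fell more in silenced cells, with a difference of -0.77 ± 0.15 (limma adjusted p = 0.00368) that was -0.49 with the GAPDH covariate (adjusted p = 0.0185). RAB18, a Rab of the ER and lipid droplets, had 11.95, 11.86 and 11.67 with R1881 and 11.89, 11.96 and 11.90 with vehicle in silenced cells. With control siRNA the values were 12.36, 12.36 and 12.23 with R1881 and 11.89, 12 and 12 with vehicle. RAB18 had a difference of -0.45 ± 0.11 (limma adjusted p = 0.0144), which was -0.19 (adjusted p = 0.2) when its probe sets were averaged. Its bright probe sets (means 11.95 to 12.01) gave -0.46 to -0.39, all called. Its dim ones (means 4.9 and 5.2) gave -0.09 and 0.41, not called.

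The 7 with a positive difference were RAB11B, RAB3B, RAB27A, RAB23, RAB40B, RAB25 and RAB29. RAB11B had 7.81, 7.22 and 7.22 with R1881 and 7.70, 7.52 and 7.32 with vehicle in silenced cells, and these overlapped. In control cells it had 7.07, 6.99 and 6.83 with R1881 and 8.10, 7.84 and 8.07 with vehicle, and these did not overlap. The difference was 0.95 ± 0.22 (limma adjusted p = 0.00827), its second probe set gave 0.55, and with the GAPDH covariate it was 0.61 (adjusted p = 0.0653). RAB23 had 7.92, 8.28 and 8.45 with R1881 and 8.22, 8.34 and 8.30 with vehicle in silenced cells. With control siRNA the values were 7.63, 7.59 and 7.42 with R1881 and 8.55, 8.34 and 8.31 with vehicle. On this brightest probe set the fall seen in control cells was not detected in silenced cells. Another probe set was called lower in both, by -0.58 ± 0.17 in silenced (limma adjusted p = 0.0137) and -1.54 ± 0.17 in control cells. The last was not called in silenced cells (-0.15). On the brightest probe set the difference of effects was 0.78 ± 0.17 (limma adjusted p = 0.00644). For RAB40B, with 9.44, 9.21 and 9.31 with R1881 and 9.69, 9.84 and 9.71 with vehicle in silenced cells, and 7.95, 8.11 and 8.01 with R1881 and 9.26, 9.21 and 8.99 with vehicle in control cells, it was 0.70 ± 0.13 (limma adjusted p = 0.00208).

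The secretory RAB3B and RAB27A were both lower with SRF siRNA in vehicle and both rose more with R1881 in silenced cells on their brightest probe sets. RAB3B had a difference of 0.82 ± 0.15 (limma adjusted p = 0.00176), positive on all 5 probe sets (0.43 to 1.21). With R1881 its brightest probe set was not called between siRNAs (0.19 ± 0.10, limma adjusted p = 0.14), while 2 of the other 4 were called higher with SRF siRNA (0.47 and 0.37), and in vehicle it was lower with SRF siRNA (-0.64 ± 0.10, limma adjusted p = 0.000249). RAB27A had a difference of 0.79 ± 0.20 (limma adjusted p = 0.0135), but its 5 probe sets ran from -0.97 to 1.18, with 2 called, both positive. It was 0.28 (adjusted p = 0.333) when they were averaged and 0.72 (adjusted p = 0.0707) with the GAPDH covariate. For RAB25 the difference was 0.45 ± 0.11 (limma adjusted p = 0.0117), and for RAB29 0.40 ± 0.12 (limma adjusted p = 0.0344). That of RAB29 lost its call when any 1 of 8 arrays was left out (0.36 to 0.39), and that of RAB25 without the third array of both silenced groups (0.38, adjusted p = 0.0603). RAB30, with a difference of 0.00 ± 0.27 and a 95% interval of -0.58 to 0.58, responded to both treatments with no detectable difference of effects. Its values with SRF siRNA and R1881 lay close to the filter of 4.

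**Figure D5:**
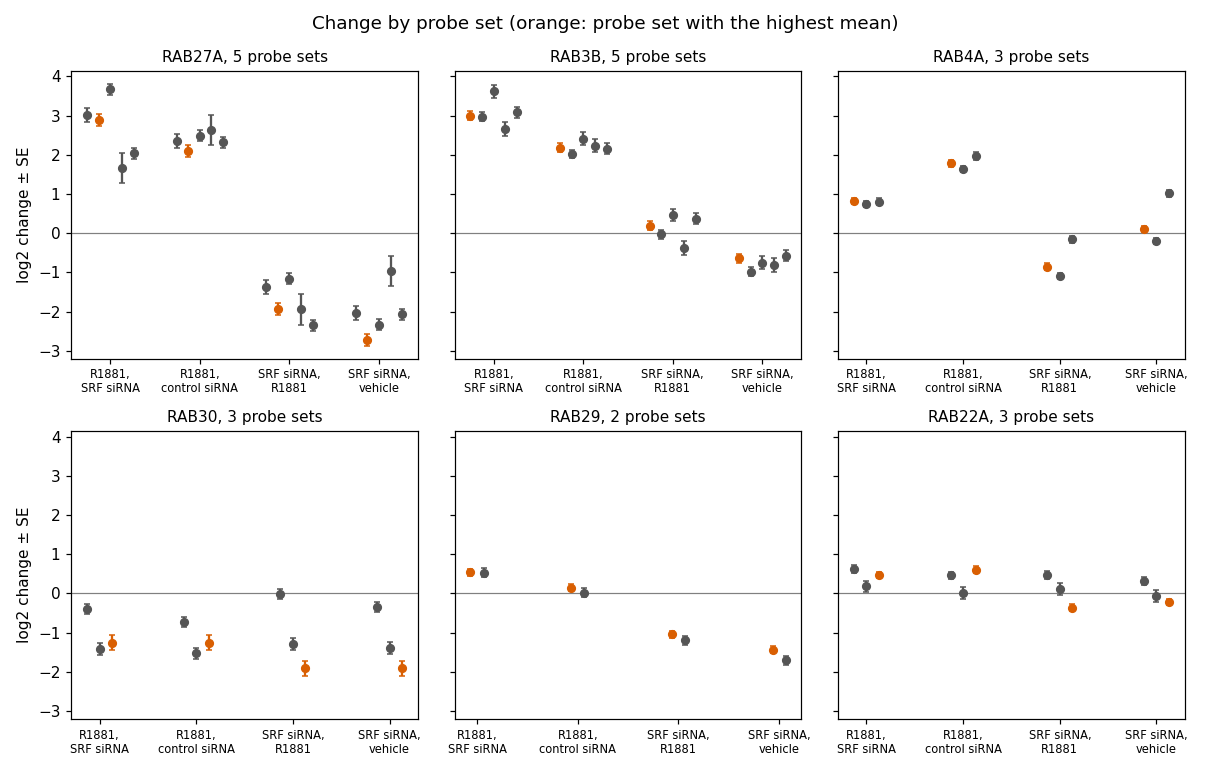
Log2 change with limma SE (y axis) of each passing probe set (points) of 6 Rab genes in the 4 pairwise comparisons, the probe set with the highest mean in orange. For RAB3B all 5 probe sets lie above 2 with R1881 under both siRNAs, and the probe sets of RAB22A split around 0 with SRF siRNA.

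The genes that load, switch off, carry and read Rab proteins were also measured. Of 43 exchange factors 33 were tested, of which 8 were higher and 7 lower with R1881 in silenced cells, and 11 higher and 8 lower in control cells. Of all genes 53.1% were called in silenced cells, 25.5% higher and 27.7% lower. In control cells 60.6% of all genes were called, 26.9% higher and 33.8% lower. RAB3IP, the exchange factor of RAB8 proteins, rose by 0.93 ± 0.08 in silenced and 1.65 ± 0.08 in control cells, a difference of -0.72 ± 0.11 (limma adjusted p = 0.000515). MON1B, part of the exchange factor of RAB7, rose by 1.14 and 1.17, each with an SE of 0.10. DENND1B, which loads RAB35, fell (-2.05 and -1.81), each with an SE of 0.12. RABGEF1, which loads RAB5, changed with SRF siRNA by -1.54 with R1881 and by -0.97 in vehicle, each with an SE of 0.19 and called. DENND5B, a DENN-domain protein, fell (-2.38 with R1881 and -2.06 in vehicle), each with an SE of 0.22.

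Of 39 GTPase-activating proteins 34 were tested, of which 9 were higher and 7 lower with R1881 in silenced cells, and 13 higher and 6 lower in control cells. Beside these, 53.1% of all genes were called in silenced cells (25.5% higher, 27.7% lower) and 60.6% in control cells (26.9% higher, 33.8% lower). TBC1D1 and TBC1D4, which act on RAB10 and related Rabs of glucose transporter vesicles, rose by 1.49 and 1.77 in silenced cells and by 2.13 and 1.17 in control cells. The difference of effects was -0.64 ± 0.16 for TBC1D1 (limma adjusted p = 0.0143) and 0.60 ± 0.15 for TBC1D4 (limma adjusted p = 0.0109). Of 9 genes of prenylation and membrane cycling 7 were tested. RABAC1, which binds prenylated Rabs, rose with R1881 by 1.03 and 1.00 and fell with SRF siRNA (-0.95 with R1881 and -0.98 in vehicle), each with an SE of 0.16. CHML, an escort protein of Rab prenylation, fell with R1881 (-0.90 in each background).

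Of 43 effectors 35 were tested, of which 14 were higher and 7 lower with R1881 in silenced cells, and 17 higher and 7 lower in control cells, with medians of 0.18 and 0.22 beside -0.03 and -0.05 for all genes. Of all genes, 25.5% were higher and 27.7% lower in silenced cells, and 26.9% and 33.8% in control cells. MICAL1, an actin-oxidising enzyme that binds Rabs, rose by 4.12 ± 0.13 in silenced and 4.44 ± 0.13 in control cells, and BICD2, a dynein adaptor of RAB6 vesicles, by 2.11 ± 0.09 and 2.55 ± 0.09. Among the effectors with the largest changes were 4 that bind RAB27A, and they moved in both directions. How many of the 35 tested effectors bind RAB27A was not counted. MLPH, which links RAB27A to myosin Va, rose by 1.84 ± 0.08 in control cells, with a difference of effects of -0.79 ± 0.12 (limma adjusted p = 0.000496). MYRIP, which links it to myosin VIIa, fell by 3.14 ± 0.13 in silenced and fell by 1.65 ± 0.13 in control cells, a difference of -1.48 ± 0.19 (limma adjusted p = 0.000175). SYTL2, a synaptotagmin-like partner, fell by 1.00 ± 0.08 in control cells, with a difference of 0.66 ± 0.12. EXPH5 rose by 1.23 ± 0.10 in silenced cells, with a difference of 1.34 ± 0.14 (limma adjusted p = 3.97e-05). With SRF siRNA APPL1, an effector of RAB5, rose by 1.69 with R1881 and 1.73 in vehicle, and RABEP2, a rabaptin, fell (-1.47 and -1.20). RILPL2, another listed effector, rose with SRF siRNA by 1.68 with R1881 and 2.32 in vehicle. With R1881 RILPL2 changed by -2.09 in silenced and -1.45 in control cells.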

How the data were processed

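The deposited values are log2 signals of 12 expression arrays, 1 per probe set and array, made by the authors with GCRMA per the submitters' processing notes; its version was not given. Scanner files and detection calls were not used here. The total RNA behind each array was 3.5 µg per the labels. Of 54675 probe sets 41091 carried 1 symbol in the platform annotation. A gene was kept with a log2 value above 4 on at least 3 arrays, which left 10265 genes, each represented by its probe set with the highest mean. No further normalization was applied: array medians ran from 2.97 to 3.06. The number of arrays limits the precision.

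Group means were modelled with limma (version 3.58.1, with statmod 1.5.0 under R 4.3.3) over all 12 arrays. P-values were adjusted by Benjamini-Hochberg over the 10265 genes, and a call needed an adjusted p under 0.05. Contrasts numbered 5: R1881 against vehicle under each siRNA, their difference, and SRF siRNA against control siRNA under each treatment. The fit was tested on simulated data. Every probe set of a Rab gene was also fitted, among 21584. Replicate numbers did not pair the arrays: deviations of same-numbered arrays correlated at -0.21 to 0.10, with 0 of 18 pairs over 0.1. Alternatives changed the filter, a floor at 4, the probe set rule, normalization, variance model, arrays, block, thresholds and a GAPDH 3′ to 5′ covariate, and left out each array.

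The Rab genes and the role, exchange factor, GTPase-activating protein, prenylation and effector lists were chosen with earlier results of these data known. Per-array values are given for Rab genes called with an absolute log2 change of at least 1, for the 3 with the highest mean (RAB11A, RAB1A and RAB18), and for RAB15, RAB20, RAB23 and RAB25, chosen after their values were seen. From each regulator list, genes were named from the 3 largest called changes in each direction and contrast, with fitted changes only. Apart from these choices by mean, levels of different probe sets were not compared. Promoter windows are from RefSeq, GRCh38.p14. Plots used matplotlib 3.10.9 (Python 3.11.15).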

Additional observations from a re-analysis of the deposited data

Results flagged for a closer look

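The R1881 response differed between SRF siRNA and control siRNA in 12 Rab genes by the test of the difference itself (limma, adjusted p under 0.05 over all genes). On the log2 scale, SRF siRNA minus control siRNA, it was 0.95 for RAB11B, 0.82 for RAB3B, 0.79 for RAB27A, 0.78 for RAB23, 0.70 for RAB40B, 0.45 for RAB25 and 0.40 for RAB29. It was -1.01 for RAB39B, -0.96 for RAB4A, -0.85 for RAB20, -0.77 for RAB17 and -0.45 for RAB18. Among the passing probe sets of RAB3B, RAB4A, RAB11B, RAB23, RAB29, RAB39B and RAB40B the difference had 1 sign. Among those of RAB27A and RAB18 it had both, and no probe set of the opposite sign was called.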

How the results depend on the processing

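Of 127 Rab calls over the 5 contrasts 45 were lost under at least 1 alternative other than a stricter threshold, and 4 changed sign, all on averaging probe sets: RAB22A with SRF siRNA (0.07 with R1881 and 0.00 in vehicle), RAB27B with SRF siRNA and R1881 (-0.01) and RAB6B with SRF siRNA in vehicle (-0.03). Of 36 changes of at least 2-fold or called differences of effects, 797 of 816 alternatives kept the call and 19 lost it, without a change of sign. The requirement of a 2-fold change left 5 Rab genes for R1881 in silenced and 7 in control cells, 1 for the difference of effects, and 6 and 6 for SRF siRNA with R1881 and in vehicle. Over all genes it left 1095, 1452, 514, 1192 and 953 in the same order, and an adjusted p under 0.01 left 1367 for the difference. Leaving out each array in turn gave 23 to 28, 29 to 33, 11 to 13, 27 to 32 and 21 to 28 Rab calls. With the replicate block they were 25, 32, 11, 29 and 25: RAB29 lost the difference of effects, RAB5A the change with R1881, and RAB21, RAB24 and RAB2B that in vehicle, and the SRF changes stayed at -1.44 and -1.34. For same-numbered arrays, 4 of 12 correlated best with their own number. With the GAPDH difference as a covariate 9 of the 32 calls for R1881 in control cells and 9 of the 28 for SRF siRNA in vehicle were lost, and the calls over all genes for R1881 in control cells numbered 3924 against 6225. The cause of these losses was not tested.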

Other observations

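Only RAB36 of the 44 tested Rab genes was not above the filter on all arrays. With R1881 its log2 values were 3.93, 4.50 and 5.01 in SRF-silenced and 3.82, 3.33 and 2.85 in control cells, and with vehicle they were 5.34, 5.17 and 5.66 in SRF-silenced and 4.24, 4.24 and 4.33 in control cells. Its lowest value lay near the array medians of 2.97 to 3.06. RAB15, placed among the recycling Rabs, had 5.62, 5.69 and 5.58 with SRF siRNA and R1881, against 6.72, 6.49 and 6.64 with control siRNA and R1881, and fell by 0.99 ± 0.12 (limma adjusted p = 2.27e-05). For RAB4A 1 of 3 probe sets rose with SRF siRNA in vehicle (1.02 ± 0.09, limma adjusted p = 3.47e-06), where the others gave -0.19 and 0.10 without a call.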
